A study of Mus musculus with 6 samples.

Results

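The 10 genes described here are Atf4 and 9 genes that its product is known to switch on in the integrated stress response: Ddit3, Trib3, Chac1, Sesn2, Ddit4, Asns, Ppp1r15a, Cebpg and Stc2. They were taken by gene symbol from a count table of 23399 genes. All 10 were present and all 10 passed the filter on low counts, which left 14987 tested genes. The samples were spheroids of the mouse cell line CMT93, which was established from a colorectal carcinoma and has a wild-type genotype per the labels, grown over soft agar with a little Matrigel. In 3 samples the medium held 200 µM palmitate, a saturated fatty acid carried on bovine serum albumin with ethanol as the solvent, and in the other 3 it held ethanol and albumin alone (vehicle). Cells spent 1 week in monolayer and then 5 days as spheroids in their own medium before polyadenylated RNA was sequenced, so all samples share the cell line, the albumin and the ethanol. The series title speaks of steatosis, fat stored in the liver, and of metastases there, and the comparison asks how message levels differ with and without palmitate.

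In the integrated stress response, kinases that sense unfolded protein, missing amino acids, lack of heme or viral RNA add a phosphate to the translation factor eIF2. Most protein synthesis then slows, while the Atf4 message, whose short upstream reading frames normally keep ribosomes from its coding part, is translated more. ATF4 is a basic leucine zipper protein that binds composite C/EBP-ATF elements, often with a C/EBP partner, and raises genes of amino acid supply, redox balance, restraint of growth and, in lasting stress, cell death. Saturated fatty acids are known to provoke stress of the endoplasmic reticulum in many cell types. Message counts do not measure eIF2 phosphorylation or ATF4 protein.

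Libraries held 18.9 to 22.9 M counts, and the 3 palmitate libraries were the deepest. All values are therefore given as CPM, counts per 1000000 after TMM scaling, which corrects for depth and composition. Nothing in the labels tells whether samples of a group were separate cultures, so the p-values rest on a spread between libraries that may be technical. Epithelial markers (Epcam, Krt8, Krt18, Krt19, Cdh1, Vil1 and Cldn7) summed to 7453 to 7522 counts per 1000000 of the library total with vehicle and 6752 to 6841 with palmitate. The lower sum came mainly from Krt8 (1702 ± 21.9 to 1438 ± 28.2 CPM) and Krt18 (1445 ± 21.4 to 1079 ± 7.71 CPM; SD, n = 3 libraries each). Cdh1 fell slightly (log2 fold change -0.05), Krt19 (0.13) and Cldn7 (0.06) rose, and Epcam (-0.04) and Vil1 (-0.12) were not past the threshold. The sum of the 4 fibroblast markers found was 1.34 to 2.06 with vehicle and 0.970 to 1.09 with palmitate, with Dcn and Pdgfra at 0 in all 3 vehicle libraries. The 3 leukocyte markers found summed to 7.46 to 9.15 with vehicle and 9.61 to 10.7 with palmitate, nearly all of it Cd68. They went both ways: Cd68 rose (log2 fold change 0.44), Ptprc fell from 0.836 to 0.266 CPM (-1.62), and Csf1r was too low to be tested. The 4 endothelial markers summed to 2.33 to 2.97 with vehicle and 1.63 to 1.93 with palmitate. The part of these small amounts in the results was not tested. In bulk RNA, fewer cells that carry a message and less message per cell cannot be told apart.

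Known ATF4 elements near the start sites were looked for in RefSeq promoter windows of build GRCm38.p6, from 250 bases before to 50 after the start, which were at hand for all 10 genes. These windows show where the letters lie, and they come from an earlier build than the authors' counts. The C/EBP-ATF element, searched on both strands as TGATGNAA, was in the windows of Chac1, Asns and Trib3, so in 3 of 10, and in 3.97% of all 32851 windows. The cyclic AMP element TGACGTCA was in the window of Ppp1r15a alone among the 10 and in 1.79% of all windows. The matches do not overlap one another, and the windows of the other 6 genes held neither motif. The stretches of Chac1 and Asns, which rose with palmitate, and of Ppp1r15a, which fell, are shown 5′ to 3′ on the gene's strand with the match in capitals. They lie before the start at chr2:119351024-119351103 (plus strand, positions -218 to -139), chr6:7693210-7693289 (minus strand, positions -80 to -1) and chr7:45526269-45526348 (minus strand, positions -80 to -1).
Chac1: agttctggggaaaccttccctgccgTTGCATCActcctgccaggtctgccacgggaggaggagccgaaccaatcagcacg
Asns: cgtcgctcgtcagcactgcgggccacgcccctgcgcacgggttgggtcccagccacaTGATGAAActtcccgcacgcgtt
Ppp1r15a: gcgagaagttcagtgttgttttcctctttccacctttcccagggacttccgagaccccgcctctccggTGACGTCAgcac
The Chac1 match reads TGATGCAA on the opposite strand, and the Asns match lies at positions -23 to -16. In Trib3 the match, TGATGTAA on the opposite strand, lies after the start, at positions 15 to 22. A match is a description of the letters and not a measured binding site.

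With palmitate, 7 of the 10 messages rose and 3 fell. Chac1 rose most, 2.00-fold, followed by Stc2 at 1.48-fold and Sesn2 at 1.46-fold. Trib3, Asns, Atf4 and Ddit3 rose by smaller amounts, and Ppp1r15a, Cebpg and Ddit4 fell slightly. All 10 passed an adjusted p of 0.05 (edgeR quasi-likelihood test, two-sided, Benjamini-Hochberg over 14987 genes). Of all tested genes, 52.8% passed the same threshold, 27.4% higher and 25.4% lower, so a call by itself sets no gene apart in this experiment. The median log2 fold change of the 10 was 0.23, with a range of -0.20 to 1.00, and that of all tested genes was 0.00068. TMM scaling holds the median of all genes near 0, so it is not a measured background. The 10 genes were also chosen with earlier results of these data known. In 6 genes all palmitate libraries lay above all vehicle libraries and in 3 all lay below. Over all tested genes the groups did not overlap for 57.8%, with 29.7% above and 28.1% below. The groups overlapped for Ddit3.

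**Figure D1:**
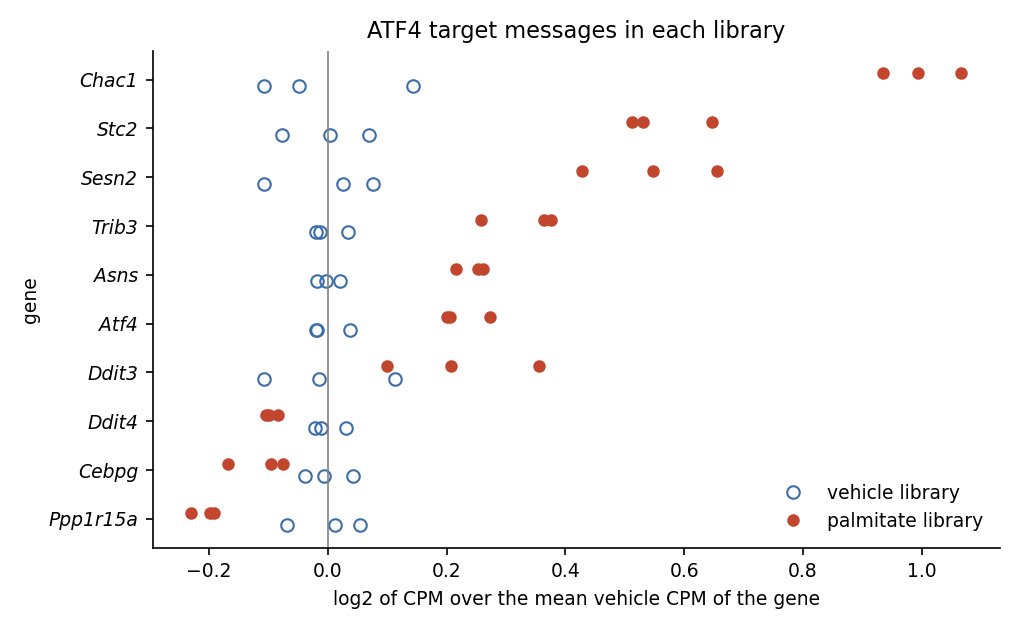
Each point is 1 library, placed by the log2 ratio of its CPM to the mean vehicle CPM of that gene, with open circles for the 3 vehicle and filled circles for the 3 palmitate libraries. Chac1 stands farthest to the right, 6 genes have their palmitate points above all vehicle points, 3 have them below, and those of Ddit3 overlap.

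The transcription factors came first in the comparison. Atf4 (ENSMUSG00000042406.9) had 235, 245 and 236 CPM with vehicle and 275, 274 and 288 CPM with palmitate, from 4466 to 6545 counts per library. Every palmitate library exceeded every vehicle library. The means were 239 ± 5.49 and 279 ± 7.82 CPM (SD, n = 3 libraries each), a 1.17-fold rise (log2 fold change 0.23, SE 0.0204, 95% interval 0.19 to 0.27, adjusted p = 1.59e-16, edgeR).

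Ddit3 (ENSMUSG00000025408.16) encodes CHOP, the factor that ties lasting stress to cell death. It had 8.95, 9.55 and 10.4 CPM with vehicle and 10.3, 12.3 and 11.1 CPM with palmitate. The lowest palmitate library lay just under the highest vehicle library, so the groups overlapped. Its 1.17-fold rise was as large as that of Atf4 but rested on only 170 to 278 counts per library (log2 fold change 0.22, SE 0.0809, 95% interval 0.06 to 0.38, adjusted p = 0.0170, edgeR). That call was lost with DESeq2 (adjusted p = 0.116) and without vehicle replicate 1 (0.102), vehicle replicate 2 (0.0538) or palmitate replicate 2 (0.154), each by edgeR adjusted p. Over all 12 alternative settings its adjusted p ran from 0.00626 to 0.154, and the log2 fold change stayed positive, between 0.15 and 0.28.

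Cebpg (ENSMUSG00000056216.10) encodes a C/EBP protein that pairs with ATF4 on its elements. It moved the other way from Atf4. The 3 vehicle libraries had 72.9, 77.1 and 74.5 CPM and the 3 palmitate libraries 71.1, 70.1 and 66.6 CPM, with a gap between the groups that was narrow beside the spread within them. The fall was 1.08-fold (log2 fold change -0.11, SE 0.0328, 95% interval -0.18 to -0.05, adjusted p = 0.00226, edgeR). Without palmitate replicate 3, the lowest of the 6, the adjusted p was 0.0513 (edgeR, log2 fold change -0.08), and over all alternatives it ran from 0.00113 to 0.0513.

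Both enzymes of small-molecule metabolism rose, by very different amounts. Chac1 (ENSMUSG00000027313.4), a cyclotransferase that breaks down glutathione, had 9.32, 10.6 and 8.95 CPM with vehicle and 18.4, 20.2 and 19.2 CPM with palmitate. The lowest palmitate library was far above the highest vehicle library. Its means were 9.64 ± 0.889 and 19.3 ± 0.880 CPM (SD, n = 3 libraries each), a 2.00-fold rise (log2 fold change 1.00, SE 0.0703, 95% interval 0.86 to 1.14, adjusted p = 2.62e-22, edgeR). Only Chac1 among the 10 changed this much, and its log2 fold change lay at the 98.3 percentile of all tested genes. Asns (ENSMUSG00000029752.13), which makes asparagine from aspartate and glutamine, had 102, 104 and 103 CPM with vehicle and 123, 120 and 123 CPM with palmitate. Its libraries were tightly grouped and did not overlap, and the rise was 1.18-fold (log2 fold change 0.24, SE 0.0264, 95% interval 0.19 to 0.30, adjusted p = 3.01e-13, edgeR). Chac1 and Asns both hold the C/EBP-ATF letters printed above, and the 95% intervals of their changes did not meet.

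The next 4 members restrain signalling or undo the response, and they did not move together. Trib3 (ENSMUSG00000032715.10), a pseudokinase that binds AKT and ATF4 and holds both back, had 12.3, 12.3 and 12.7 CPM with vehicle and 16.0, 16.2 and 14.9 CPM with palmitate. The groups were apart, and the rise was 1.26-fold (log2 fold change 0.33, SE 0.0680, 95% interval 0.20 to 0.47, adjusted p = 1.99e-05, edgeR). Sesn2 (ENSMUSG00000028893.9), a sestrin that senses leucine and restrains mTORC1, had 4.63, 4.23 and 4.80 CPM with vehicle and 6.13, 6.66 and 7.18 CPM with palmitate. It was the least abundant of the 10, with 88 to 163 counts per library, and rose 1.46-fold (log2 fold change 0.55, SE 0.11, 95% interval 0.33 to 0.77, adjusted p = 1.41e-05, edgeR).

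Ddit4 and Ppp1r15a went down. Ddit4 (ENSMUSG00000020108.5), known as REDD1, also restrains mTORC1 and is known to answer to hypoxia and glucocorticoids as well as ATF4. It had 82.5, 81.9 and 84.9 CPM with vehicle and 77.4, 78.4 and 77.6 CPM with palmitate. The 2 groups were narrow and apart, and the fall of 1.07-fold was the smallest change of the 10 (log2 fold change -0.10, SE 0.0305, 95% interval -0.16 to -0.03, adjusted p = 0.00597, edgeR). Ppp1r15a (ENSMUSG00000040435.13) encodes GADD34, which brings a phosphatase to eIF2 and so ends the response. Its levels were 30.0, 27.6 and 29.2 CPM with vehicle and 25.3, 25.2 and 24.7 CPM with palmitate. Every palmitate library was below every vehicle library, a 1.15-fold fall (log2 fold change -0.20, SE 0.050, 95% interval -0.30 to -0.10, adjusted p = 0.000329, edgeR). Sesn2 and Ddit4, both of which restrain mTORC1, thus changed in opposite directions with 95% intervals on opposite sides of 0.

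The secreted member rose. Stc2 (ENSMUSG00000020303.3) encodes stanniocalcin 2, a glycoprotein hormone released by stressed cells. It had 9.58, 10.1 and 10.6 CPM with vehicle and 15.8, 14.4 and 14.6 CPM with palmitate, with no overlap. The rise was 1.48-fold (log2 fold change 0.56, SE 0.0730, 95% interval 0.42 to 0.71, adjusted p = 2.29e-10, edgeR), at the 95.5 percentile of all tested genes, beside the 95.3 percentile for Sesn2.

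**Figure D2:**
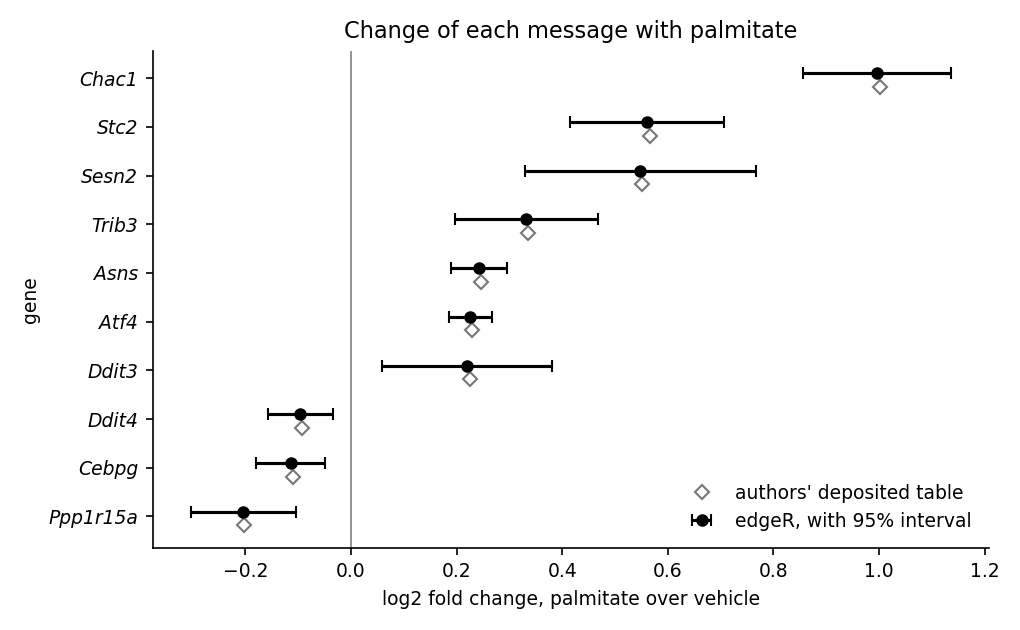
Filled points are edgeR log2 fold changes, palmitate over vehicle, with 95% intervals, and open diamonds are the log2 fold changes of the authors' deposited table. The intervals of 7 genes lie above 0 and those of 3 below it, and Chac1 at 1.00 is clear of all others.

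The authors' deposited table, made with DESeq2, gave nearly the same log2 fold changes but called fewer of the 10. A q-value under 0.05 stood in the authors' deposited table for 7 of them, 6 higher and 1 lower, against 24.2% of all 23399 genes listed there, 13.3% higher and 10.9% lower. The other 3 in the authors' deposited table were Ddit3 (q = 0.139), Ddit4 (q = 0.0821) and Cebpg (q = 0.0511). They are the 3 genes with the largest p in the edgeR fit, and the other 7 were called by both. The 23399 genes of the authors' deposited table include those taken out here by the filter on low counts, a filter that all 10 passed. The 24.2% thus rests on a wider set of genes than the shares of tested genes. DESeq2 run on the same filtered genes as edgeR called 9 of the 10, all but Ddit3, and 39.4% of all tested genes.

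Per length of message the 10 genes spanned a wide range, and the order of some neighbours changed with palmitate. Levels are given here as CPM per kilobase of exon, with lengths from Gencode M21. With vehicle the order was Atf4 (101), Ddit4 (47.4), Asns (37.7), Cebpg (13.3), Ppp1r15a (9.85), Chac1 (5.89), Trib3 (5.86), Ddit3 (5.63), Stc2 (1.95) and Sesn2 (1.31), as mean CPM per kilobase. Chac1, Trib3 and Ddit3 overlapped in their vehicle libraries and have no order among them. With palmitate Atf4 was still highest (118 CPM per kilobase) and Stc2 (2.89) and Sesn2 (1.91) lowest. Asns (44.6) and Ddit4 (44.3) now overlapped, at 43.8 to 45.1 and 44.1 to 44.7 CPM per kilobase. Chac1, at 11.8 CPM per kilobase, had passed Ppp1r15a (8.53) and overlapped with Cebpg (12.3). Trib3 (7.38) and Ddit3 (6.58) overlapped at 7.0 to 7.60 and 6.03 to 7.20 CPM per kilobase.

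**Figure D3:**
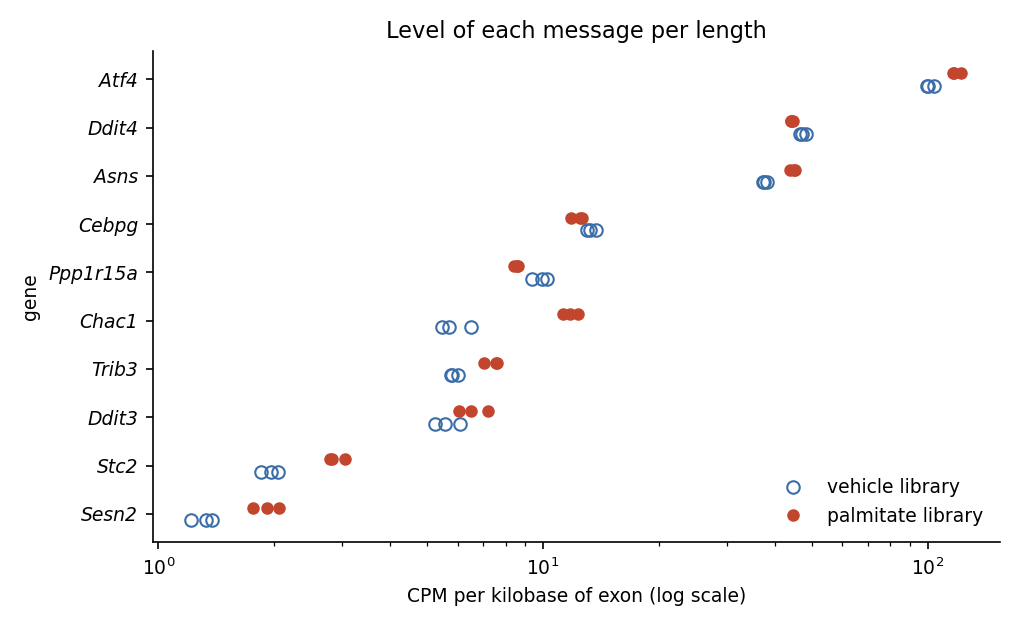
Points are single libraries on a log axis of CPM per kilobase of exon, open for vehicle and filled for palmitate, with genes ordered by their vehicle mean. Atf4 is highest at 101 and 118, Chac1 moves from the level of Trib3 and Ddit3 to that of Cebpg, and Sesn2 is lowest.

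Exons of 3 members overlap exons of other genes in the Gencode M21 annotation, and the sources used here do not tell if strand was used in counting. Ddit3 overlaps Mars1 on the opposite strand, which had 1581 to 2053 counts per library and itself rose (log2 fold change 0.16). Another gene entry, also named Ddit3, overlaps it on the same strand and was not analysed here. The value of Ddit3 is therefore uncertain. Gm4189 also overlaps Ddit3 on the opposite strand, with 13 to 29 counts per library, and was not past the threshold (log2 fold change -0.43, edgeR's adjusted p 0.137). Ppp1r15a overlaps Tulp2 (1 to 4 counts per library) and Cebpg overlaps Gm44836 (3 to 12 counts), which are low beside their own counts. Cebpg further overlaps Gm45095 on the opposite strand, which was not analysed here. No transcript of a gene with a different symbol in that annotation matched a member over 100 bases at 95% identity. Entries that share a member's symbol, such as the other Ddit3 entry, were not compared.

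Around these genes, messages for the stress kinases went both ways, and those for eIF2 and its exchange factor eIF2B rose or were not past the threshold. Of the 4 eIF2 kinase genes 1 rose, 1 fell and 2 were not past the threshold, and of 8 eIF2 and eIF2B subunit genes 5 rose and 3 were not past it. With 3 regulators of this step, Gcn1, Impact and Ppp1r15b, the list held 15 genes. Of these 8 rose, 1 fell and 6 were not past the threshold, with a median log2 fold change of 0.13. So 60% were called, beside 52.8% of all tested genes, 27.4% higher and 25.4% lower. Counts in the later lists stand beside the same shares. Eif2ak4, which encodes the amino acid sensor GCN2, rose from 41.0 ± 2.19 to 49.6 ± 2.09 CPM (SD, n = 3 libraries each; log2 fold change 0.28, adjusted p = 1.09e-08, edgeR). The eIF2 subunit genes Eif2s1 (0.25) and Eif2s2 (0.20) rose too, given as log2 fold changes. Eif2ak3, which encodes the endoplasmic reticulum sensor PERK, went the other way from 121 ± 4.44 to 115 ± 3.26 CPM, with overlapping groups (log2 fold change -0.07, adjusted p = 0.0231, edgeR). Its call was lost without a count filter (adjusted p = 0.0622), with DESeq2 (0.112) and on leaving out vehicle replicate 2 (0.0683), vehicle replicate 3 (0.179) or palmitate replicate 1 (0.215). Ppp1r15b, the constitutive relative of Ppp1r15a, rose from 179 ± 1.05 to 195 ± 1.63 CPM (SD, n = 3 libraries each).

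Leucine zipper factors that pair with ATF4 or share its sites were divided. Of 6, 3 rose, 1 fell and 2 were not past the threshold. Jdp2 rose from 28.8 ± 0.422 to 40.8 ± 1.07 CPM (log2 fold change 0.50) and Nfe2l2, the NRF2 gene, from 167 ± 4.72 to 190 ± 2.50 CPM (0.19), while Cebpd fell from 16.5 ± 0.266 to 11.8 ± 0.112 CPM (-0.48; SD, n = 3 libraries each). Atf3, a classic target of ATF4, rose from 9.77 ± 0.488 to 11.5 ± 0.253 CPM (log2 fold change 0.24, adjusted p = 0.00732, edgeR). Its call was lost with DESeq2 (log2 fold change 0.23, adjusted p = 0.0741) and without vehicle replicate 2 (log2 fold change 0.20, edgeR adjusted p = 0.0511), with the direction kept. Atf5 had 36.9 ± 1.11 and 34.4 ± 2.20 CPM and was not past the threshold (log2 fold change -0.10, adjusted p = 0.0512, edgeR). It passed in 4 of the 12 alternatives, among them median-of-ratios factors (adjusted p = 0.0439, edgeR) and the fits without vehicle replicate 2 (0.0378) or palmitate replicate 2 (0.00785).

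Genes of amino acid supply moved in both directions. For transporters known as ATF4 targets, 6 of 10 rose, 1 fell and 3 were not past the threshold, with a median log2 fold change of 0.07. Those 3 were Slc7a11 (552 and 542 mean CPM with vehicle and palmitate, log2 fold change -0.03), Slc7a5 (173 and 170, -0.03) and Slc7a3 (1.46 and 1.05, -0.48). The serine and alanine carrier gene Slc1a4 rose from 76.4 ± 0.489 to 99.7 ± 3.40 CPM and the leucine carrier gene Slc43a1 from 1.38 ± 0.217 to 3.76 ± 0.129 CPM, while the glutamine carrier gene Slc1a5 fell from 162 ± 4.56 to 123 ± 1.16 CPM (SD, n = 3 libraries each). Slc7a1 rose less (log2 fold change 0.17). For synthesis of amino acids and one-carbon units, 7 of 14 rose, 2 fell and 5 were not past the threshold, with a median of 0.09. Those 5 were Psph (log2 fold change 0.09), Aldh1l2 (0.00077), Pycr1 (0.13), Cbs (-0.09) and Pck2 (-0.004). Gpt2, the mitochondrial alanine transaminase gene, rose by 0.54 on the log2 scale, the proline synthesis gene Aldh18a1 by 0.34 and the folate enzyme gene Mthfd2 by 0.18. Psat1, of serine synthesis, fell by 0.11, and Cth, which makes cysteine, fell by 0.49, although the adjusted p of Cth was 0.0549 without vehicle replicate 1 (edgeR).

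Aminoacyl-tRNA synthetases, which load amino acids onto tRNA, mostly rose by small steps. Of 12 genes 10 rose, 1 fell and 1 was not past the threshold, with a median log2 fold change of 0.14 and a highest of 0.25. Aars rose from 368 ± 2.95 to 438 ± 5.15 CPM and Gars from 225 ± 5.76 to 266 ± 1.70 CPM (SD, n = 3 libraries each), and Wars had a log2 fold change of 0.19. The one that fell was Eprs (log2 fold change -0.06), whose call was lost in 6 of the 12 alternatives.

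Other stress targets of ATF4 gave mixed values. Of 9 tested, 4 rose, 1 fell and 4 were not past the threshold, with a median of 0.07. Calls made up 55.6% of them, close to the 52.8% over all tested genes. Not past the threshold were Nupr1 (log2 fold change -0.02), Xpot (0.006), Ero1a (0.07) and Bbc3 (-0.11). Gdf15, a secreted stress hormone gene, rose from 5.83 ± 0.365 to 9.17 ± 1.2 CPM, the translation repressor gene Eif4ebp1 from 36.2 ± 1.35 to 49.4 ± 1.21 CPM and the death receptor gene Tnfrsf10b from 10.5 ± 0.657 to 14.0 ± 0.909 CPM (SD, n = 3 libraries each). Vldlr fell from 149 ± 2.34 to 126 ± 1.90 CPM. Fgf21 was too low to be tested, with 0 to 1 counts per vehicle library and 3 to 6 per palmitate library. Adm2 was not analysed here.

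Genes of the ATF6 and XBP1 branches of the unfolded protein response moved in both directions. Of 18 genes 5 rose, 8 fell and 5 were not past the threshold, with a median log2 fold change of -0.03. Xbp1 fell from 191 ± 1.68 to 174 ± 2.96 CPM, and the chaperone and degradation genes Dnajc3 (-0.25), Syvn1 (-0.20) and Hyou1 (-0.15) fell, given as log2 fold changes. Dnajb9 (0.34), Sel1l (0.20) and Calr (0.13) rose. Hspa5, the main chaperone gene of the endoplasmic reticulum, had 726 ± 3.58 and 753 ± 18.7 CPM (SD, n = 3 libraries each; log2 fold change 0.05, adjusted p = 0.00481, edgeR), but its adjusted p was 0.0808 without palmitate replicate 1. Whether the 10 ATF4 targets and these 18 genes differ as lists was not tested.

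**Figure D4:**
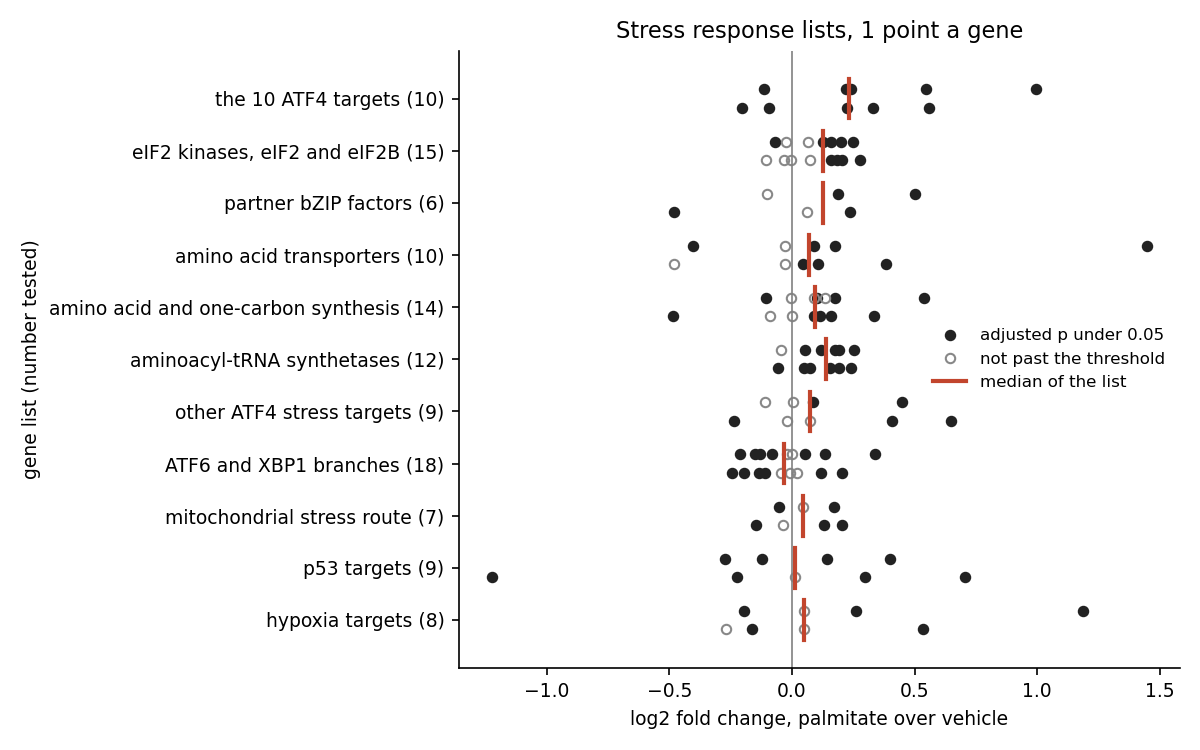
Each point is 1 tested gene placed by its log2 fold change, palmitate over vehicle, in rows by list, filled where the adjusted p was under 0.05, and red bars mark list medians. The 10 ATF4 targets have a median of 0.23, the synthetases one of 0.14, and the ATF6 and XBP1 branches one of -0.03.

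Stress that starts in mitochondria can also reach eIF2, through OMA1 and DELE1. Of 7 genes of that route and of mitochondrial protein quality control 3 rose, 2 fell and 2 were not past the threshold. The 2 not past it were Oma1 (log2 fold change 0.04, adjusted p = 0.651, edgeR) and Dele1 (-0.04, adjusted p = 0.352). All called genes of this list were thus of protein quality control. Hspa9 (log2 fold change 0.17), Clpp (0.21) and Lonp1 (0.13) rose and Hspe1 fell (-0.15). Hspd1 fell by 0.05 on the log2 scale, a call lost without vehicle replicate 3 (adjusted p = 0.0514, edgeR) or palmitate replicate 3 (0.0825).

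A further pair of lists covers other known regulators of some members. Sesn2 is also a p53 target, and of 9 other p53 targets 4 rose, 4 fell and 1 was not past the threshold. Cdkn1a rose from 18.0 ± 0.952 to 29.5 ± 0.440 CPM, and Ccng1 (log2 fold change 0.40) and Btg2 (0.30) rose, while Fas fell from 2.85 ± 0.486 to 1.21 ± 0.258 CPM (SD, n = 3 libraries each). Zmat3 (-0.22) and Sesn1 (-0.27) fell. Ddit4 is also a hypoxia target, and of 8 tested hypoxia targets 3 rose, 2 fell and 3 were not past the threshold. Adm (1.19) and Bnip3 (0.53) rose and Slc2a1 (-0.19) and Pdk1 (-0.16) fell, given as log2 fold changes. Ankrd37 rose (0.26), a call lost in 10 of the 12 alternatives. The part of p53 or hypoxia in the values of Sesn2 and Ddit4 was not tested.

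Among 9676 other genes of at least 10 CPM, the log2 CPM of Leprotl1, Mrps10 and Bloc1s4 followed Atf4 most closely over the 6 libraries, outside the lists above. Since 1020 genes had a Pearson likeness of at least 0.95 to Atf4, and all share the split between the 2 groups, this describes the groups more than the genes. Leprotl1 had 42.2 ± 0.935 CPM with vehicle and 51.0 ± 1.56 CPM with palmitate (SD, n = 3 libraries each).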

How the data were processed

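Groups were taken from the sample titles, with 3 vehicle and 3 palmitate libraries. Per the submitters' processing notes, reads of the authors went through STAR 2.6.1 and HTSeq on build mm39, with FastQC 0.11.8 and DESeq2 1.34.0 also named. The deposited table holds raw counts per gene with Gencode vM30 symbols, per the authors' column description. The authors' deposited DESeq2 table gives for each gene its log2 fold change with a p-value and q-value. The strand setting of the counting is not given in these sources. No row was without a gene name.

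The quasi-likelihood test of edgeR 4.0.16 under R 4.3.3 (robust glmQLFit, two-sided glmQLFTest) was applied to the counts after TMM scaling and filterByExpr with a minimum count of 10, with Benjamini-Hochberg adjustment over all 14987 genes and a threshold of 0.05. The standard error is the size of the log2 fold change divided by the root of the quasi-likelihood F. The fits were tested on simulated counts with known changes. Few genes changed there and all had the same relative spread, unlike in the data. That test therefore does not vouch for the calls here. Alternatives were DESeq2 1.42.0, limma-voom (limma 3.58.1), median-of-ratios factors, no filter, the replicate number as a block, thinning to the shallowest library, and leaving out each library. Libraries of a group differed by more than counting noise in every pair (chi-square over its degrees of freedom 1.20 to 1.38), so none was taken for a copy. With 18.9 to 22.9 M counts per library, counting error is largest for Sesn2 and Ddit3.

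The 10 genes and the lists around them were chosen with earlier results of these data known. Beside the 10, the text names up to 3 called genes per list and direction by smallest p, the fixed genes Atf3, Atf5, Eif2ak3, Eif2ak4, Hspa5, Xbp1 and Cdkn1a, and the 3 genes most like Atf4. Mars1, Gm4189, Tulp2, Gm44836, Gm45095, Gcn1, Impact, Ppp1r15b, Fgf21 and the marker genes were named in addition. So were Oma1, Dele1 and the genes not past the threshold among the amino acid transporters, the synthesis genes and the other stress targets. Exon lengths and overlaps came from Gencode M21, and promoter windows from RefSeq. Plots were made in Python 3.11.15 with matplotlib 3.10.9.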

Additional observations from a re-analysis of the deposited data

How the results depend on the processing

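Over 12 alternatives, 9 or 10 of the 10 genes were called, and all 10 kept their direction in every alternative. The calls lost were those of Ddit3 (4 alternatives) and Cebpg (1), with the values given beside each gene. Over all genes, edgeR called 7915, DESeq2 5899, and leaving out 1 library gave 7260 to 7406. The median log2 fold change of the 10 was 0.23 and moved by more than its spread between libraries only without vehicle replicate 3 (0.26) or palmitate replicate 1 (0.26). Leaving out each library in turn gave 0.23 to 0.26. In the other lists edgeR called from 55.6% (other ATF4 stress targets) to 91.7% (synthetases) of the tested genes of a list. Together 76 genes were called in them, and 63 to 76 in the alternatives. DESeq2 gave 63, and over all tested genes it called 39.4%, against 52.8% by edgeR. Libraries with the same number did not deviate together (r = -0.0173, -0.0196 and -0.0174 over 9677 genes), so the numbers were not taken to pair the samples. With the replicate number as a block, 7933 genes were called, 10 of the 10 genes among them, with a median of 0.23. In that fit Ankrd37 was no longer called (adjusted p = 0.0515, edgeR) and Atf5 was (0.0481). No other gene of the members, of those named by smallest p or of the fixed genes changed its call. The eIF2 list had 10 called genes against 9 in the main fit, and the synthetases 10 against 11. Calls outside those genes thus changed too. The lowest counts limit Sesn2 and Ddit3 most.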
